A study of Homo sapiens with 15 samples.

Results

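The loops described here are the 2857 chromatin contacts of the H3K27ac HiChIP set that had fewer than 3 read pairs in the vehicle library (0 m) and at least 10 read pairs in the 16 h library. They were 0.964% of the 296326 loops of that set, and the whole series holds 505995 different loops. Among the 69616 H3K27ac loops with at least 10 read pairs at 16 h, 4.1% met the 0 m limit. They were chosen by their H3K27ac values at 0 m and 16 h, so the contrast between those times is a description and not a finding, and they are called low-to-high loops below.

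HiChIP joins DNA ends that lie close together in fixed nuclei and then pulls down the fragments carrying a histone mark, so that each read pair records one contact. LNCaP, an established human prostate cancer cell line that depends on androgen, was kept for 3 days in medium with charcoal-stripped serum, which removes steroids, and then received ethanol vehicle (0 m) or the androgen dihydrotestosterone (DHT) at 10 nM. DHT cells were collected after 30 m and 4 h, and later after 16 h and 72 h. The labels give 2 H3K27ac replicates and 1 H3K4me3 sample for each of the 5 time points, 15 samples in all, from 1 cell line. The deposited tables give a loop 1 TMM-scaled contact frequency per mark and time, without replicate error, and every interval below is a 95% interval for counting error only. Series of 5 values are listed in order of time, from vehicle to 72 h.

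Acetylation of histone H3 at lysine 27 marks active enhancers and promoters, and trimethylation at lysine 4 marks mainly active promoters. The androgen receptor is a nuclear receptor that binds DNA as a dimer after binding DHT, mostly at enhancers far from the genes it regulates, and a loop brings such an enhancer near a promoter. In prostate cells its classical targets include secretory proteases, lipid synthesis enzymes and genes of the secretory pathway.

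Read pairs were recovered from the deposited contacts, 100% of which were whole multiples of the smallest. Over the 296326 loops the H3K27ac libraries held 1989545, 3426705, 2880426, 3367952 and 2541941 read pairs, so the 0 m library was the shallowest and the 16 h library held 1.69 times as many. The H3K4me3 libraries held between 1327128 (30 m) and 6726710 (4 h). Promoters of 10 prostate luminal marker genes carried a mean summed H3K27ac contact of 104 per gene at 0 m, against 1.47 for 6 basal and 1.65 for 8 blood marker genes.

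The DNA letters of a low-to-high anchor are shown for those 5 kb bins that hold an exact palindromic androgen response element, AGAACA and TGTTCT with 3 bases of any kind between them, because the receptor named by the treatment binds this element. The element was present in 10 of the 4961 bins that hold a low-to-high anchor. The following 61-base stretches of GRCh37 (plus strand, 5′ to 3′) come from 4 of these bins, with the element in capitals.

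NEDD4L intron, chr18:55953129-55953189: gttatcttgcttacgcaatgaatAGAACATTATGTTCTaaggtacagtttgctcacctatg
Intergenic, 61.1 kb from the FAM120A start, chr9:96152874-96152934: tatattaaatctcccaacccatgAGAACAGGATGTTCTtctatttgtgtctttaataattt
INPP4A intron, chr2:99153924-99153984: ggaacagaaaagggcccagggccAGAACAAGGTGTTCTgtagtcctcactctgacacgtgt
CDO1 intron, chr5:115146484-115146544: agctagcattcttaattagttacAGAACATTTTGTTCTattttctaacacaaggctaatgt

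The NEDD4L bin, in the gene of a ubiquitin ligase of ion channels, was joined over 665 kb to the promoter of NARS1, which encodes the cytosolic asparaginyl-tRNA synthetase. This loop had 0, 1, 3, 14 and 0 H3K27ac read pairs. The bin near FAM120A was joined over 60 kb to the FAM120A promoter, with 2, 10, 10, 14 and 8 read pairs. The CDO1 bin, in the gene of cysteine dioxygenase, was joined over 30 kb to the promoter shared by AP3S1 and ATG12 and had 1, 12, 7, 12 and 8 read pairs. The INPP4A bin, in the gene of a phosphoinositide phosphatase, was joined over 10 kb to an intron of the same gene, with 2, 16, 11, 12 and 5. Of these 4 loops, only the one at NEDD4L stayed under 5 read pairs at the other 4 times.

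Elements of this kind were about as frequent at low-to-high anchors as elsewhere. A match with at most 1 mismatch in the 12 fixed letters, on either strand since the element reads the same on both, was found in 2.66% of low-to-high bins (interval 2.23 to 3.15) and in 2.59% of the 143648 bins of all H3K27ac loops. The exact element was in 0.202% (0.0967 to 0.370) and 0.110%. The forkhead motif TGTTTAC, searched on both strands, was in 52.6% of low-to-high bins (51.2 to 54.0) and 53.7% of all bins, and the CTCF core, searched on both strands as CCAC, any base, AGG, any base, GGCAG or with CCGCG, any base, GG as its first part, was in 0.726% (0.509 to 1.003) and 0.512%. The forkhead motif and the second part of the androgen element both begin with TGTT. The median GC content was 45.4% in low-to-high bins, 43.5% in the bins of other loops with at least 10 read pairs at 16 h and 42.2% in all bins.

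The number of loops that met the rule was first set against what depth and counting give. The same rule with another treated library took 3946 loops at 30 m, 1817 at 4 h and 1443 at 72 h, and the mirrored rule (at least 10 at 0 m and fewer than 3 at 16 h) took 440 loops. Had each loop's read pairs been split between the 0 m and the 16 h library at a single ratio, the rule would have taken 1515 loops at the ratio of the deposited TMM scale, which is 53.0% of the 2857. It would have taken 2177 (76.2%) at the ratio of the totals of each length class and 3111 (109%) at the ratio of the totals of all loops. The mirrored rule would have taken 73 loops at the ratio of the TMM scale and 23 at that of all totals, fewer than the 440 counted. With the 16 h library thinned to 59.1% of its read pairs, to equal the 0 m total, 482 loops on average met the rule and 1876 met its mirror. On the TMM scale, at 72.3% of its read pairs, 984 met the rule and 1116 met its mirror.

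Splits at a single ratio thus gave between 53.0% and 109% of the 2857 loops, depending on the scale. Only the split at the totals of all loops gave more than were counted. No gain is claimed for the set as a whole, and the cause of its number was not tested. With at least 15 read pairs at 16 h, 536 loops were counted against 91.3, 258 and 276 from the same splits. With at least 20 read pairs, 140 loops were counted against 5.83, 37.7 and 26, and with at least 30 read pairs, 16 loops against 0.024, 0.867 and 0.234. The values of the loops at the limits ran on without a step. The 895 loops with exactly 10 read pairs at 16 h had a mean H3K27ac contact of 1.54 at 72 h and 1.31 at 30 m, and the 1345 loops just outside, with 9 read pairs, had 1.35 and 1.16. The 1675 loops with 2 read pairs at 0 m had 2.01 at 72 h, and the 2606 loops just outside, with 3, had 2.16.

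**Figure D1:**
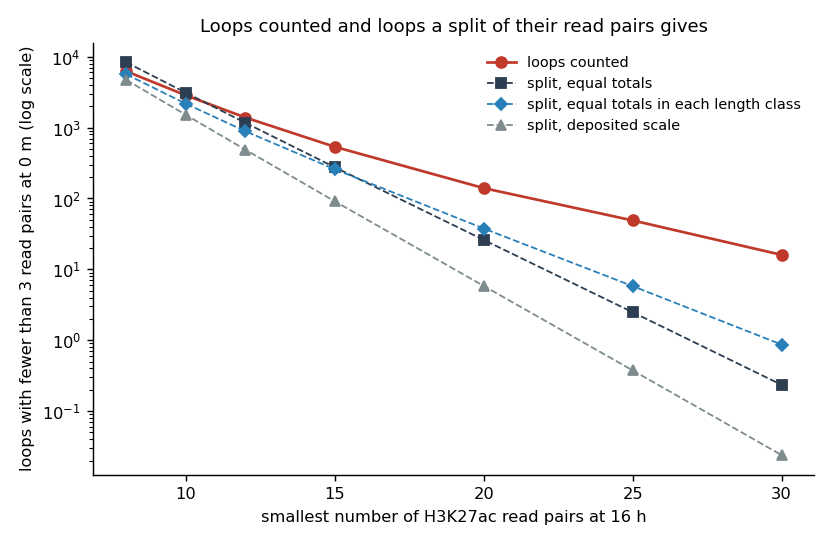
Number of H3K27ac loops with fewer than 3 read pairs at 0 m (vertical axis, log scale) against the smallest number of read pairs asked for at 16 h (horizontal axis), as counted (circles) and as given by splitting each loop's read pairs between the libraries at 1 ratio (squares for the totals of all loops, diamonds for the totals of each length class, triangles for the deposited scale). At 10 read pairs the 2857 loops counted lie between the splits, and at 20 read pairs the 140 loops counted lie above all of them.

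Single low-to-high loops rested on few read pairs. At 0 m, 296 of them had no read pair, 886 had 1 and 1675 had 2. At 16 h their lowest, median and highest values were 10, 11 and 59 read pairs. The libraries that the rule did not use held a median of 8 read pairs at 30 m (0 to 38), of 5 at 4 h (0 to 32) and of 6 at 72 h (0 to 44). The contact that these counts stand for was on average 0.436, 1.503, 1.25, 2.68 and 1.91, against 1.97, 2.08, 2.08, 2.41 and 2.26 over all loops. The 0 m and 16 h levels were fixed by the rule. The other loops with fewer than 3 read pairs at 0 m had mean contact of 0.377 at 0 m and of 0.669, 0.713 and 0.703 at 30 m, 4 h and 72 h.

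Few of the loops were absent from every other library. Of the 2857 loops, 182 also had fewer than 3 read pairs at 30 m, 467 at 4 h and 289 at 72 h, and 18 (0.630%) had fewer than 3 at all 3 of these times. As shares these were 6.37%, 16.3% and 10.1%, against 22.5%, 23.6% and 35.7% of all H3K27ac loops at the same times, of which 4.82% were this low at all 3. Over the others with at least 10 read pairs at 16 h the shares were lower, at 0.628%, 1.20% and 1.38%, and 0.021% at all 3. At least 10 read pairs were present at 30 m in 969 loops (33.9%), at 4 h in 419 (14.7%) and at 72 h in 682 (23.9%). Over all H3K27ac loops the same limit was met by 27.3%, 24% and 19%, and over the others with at least 10 read pairs at 16 h by 84.7%, 78.2% and 72.8%. Among the 3 times that the rule did not use, contact was highest at 72 h in 1505 loops (52.7%), at 30 m in 789 and at 4 h in 563. Over all H3K27ac loops 72 h was the highest of these 3 in 33.4%.

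**Figure D2:**
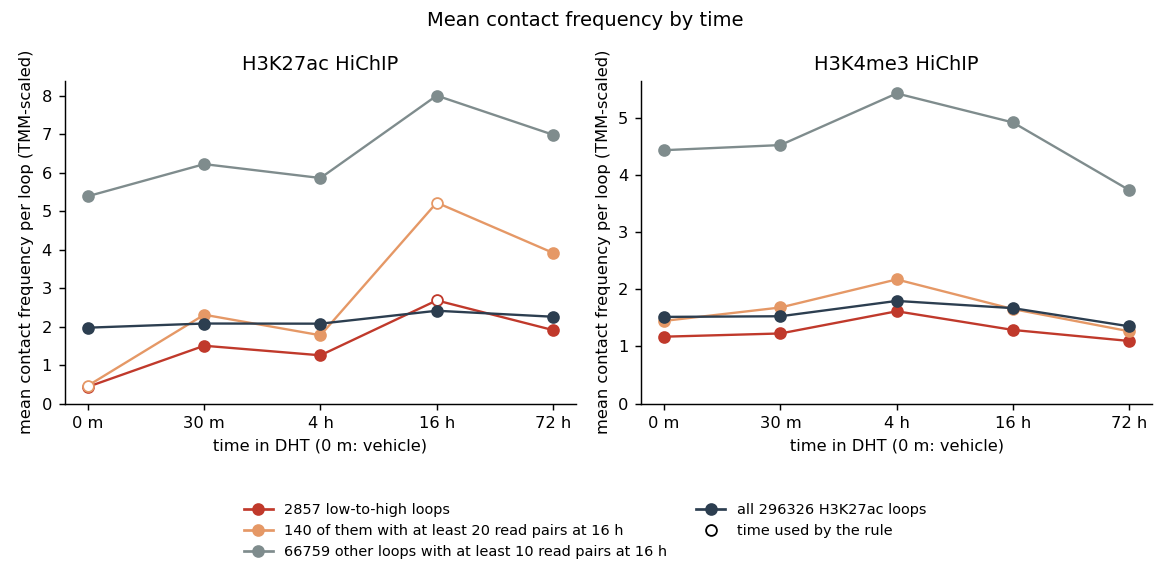
Mean TMM-scaled contact frequency per loop (vertical axes, from 0) in H3K27ac HiChIP (left) and H3K4me3 HiChIP (right) in vehicle (0 m) and at the 4 times in DHT, for the low-to-high loops, their 140 members with at least 20 read pairs at 16 h, the other loops with at least 10 read pairs at 16 h and all loops. Open symbols are the times that chose the loops, and there are no error bars because the tables give 1 value per loop and time. In H3K27ac the low-to-high mean was 1.25 at 4 h and 1.91 at 72 h, and in H3K4me3 it was 1.17 at 0 m and 1.29 at 16 h.

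The H3K27ac libraries of the remaining times took no part in choosing the loops and were compared with each other. From 4 h to 72 h the summed contact of the low-to-high loops was higher by 0.61 on the log2 scale (0.58 to 0.64), against 0.12 over all loops, a difference of 0.49 (0.46 to 0.52). The 66759 other loops with at least 10 read pairs at 16 h were higher by 0.25, so that a high count at 16 h went with part of this change also where 0 m was not low. The loops just outside the limits came nearer: those with 3 read pairs at 0 m and at least 10 at 16 h were higher by 0.48 (0.46 to 0.51), and those with fewer than 3 at 0 m and 9 at 16 h by 0.36 (0.31 to 0.40). Contact at 72 h was above that at 4 h in 1982 loops (69.4%), and in 47.5% of all loops.

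Between 30 m and 4 h the low-to-high loops had lower contact, by -0.26 (-0.29 to -0.23), against -0.0027 over all loops. By promoter class this change was -0.024 (-0.064 to 0.017) without a promoter anchor, -0.42 with 1 and -0.67 with 2, against 0.22, -0.23 and -0.43 over all loops of the same classes. In loops under 20 kb its interval held 0, at 0.082 (-0.0016 to 0.17). From 30 m to 72 h they were higher by 0.35 (0.32 to 0.37), against 0.12. The same 4 h to 72 h comparison was 0.29 (0.27 to 0.32) for the loops that the rule takes at 30 m in place of 16 h. The size of the change moved with the 16 h count: it was 0.45 in loops with 10 or 11 read pairs at 16 h, 0.58 with 12 to 14, 0.81 with 15 to 19 and 1.14 (1.04 to 1.25) in the 140 loops with 20 or more. In these 140 loops the lowest, median and highest counts were 0, 8 and 29 read pairs at 4 h and 3, 13 and 44 at 72 h. Contact at 72 h exceeded that at 4 h in 121 of them.

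Over all loops the 4 h to 72 h change itself varied with promoters and distance, so the values within each class are given as well. Among loops without a promoter anchor the 4 h to 72 h change was 0.51 (0.47 to 0.56) in low-to-high loops and -0.0055 in all loops. With 1 promoter anchor it was 0.66 (0.61 to 0.71) and 0.26, and with 2 it was 0.83 (0.75 to 0.91) and 0.37. By distance it was 0.25 (0.17 to 0.34) under 20 kb, 0.59 from 20 to under 100 kb, 0.69 from 100 to under 500 kb and 1.02 (0.86 to 1.18) at 500 kb or more, against 0.20, 0.051, 0.0051 and 0.080 over all loops of the same classes. The interval of the low-to-high loops lay above the value of all loops in 6 of these 7 classes, the exception being loops under 20 kb.

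H3K4me3 was measured in separate libraries that the rule did not use, and its change to 16 h, summed over the low-to-high loops, was not distinguishable from that of all loops. The low-to-high loops had median H3K4me3 counts of 2, 2, 11, 4 and 2 read pairs, and 38 loops (1.33%) had none at any time. This held for 5.39% of all loops and 0.288% of the others with at least 10 H3K27ac read pairs at 16 h. The mean H3K4me3 contact of the low-to-high loops was 1.17, 1.23, 1.62, 1.29 and 1.10, and that of all loops 1.52, 1.53, 1.80, 1.67 and 1.35. From 0 m to 16 h the change was 0.14 (0.11 to 0.17) in low-to-high loops and 0.14 in all loops, a difference between -0.034 and 0.033. Of the 7 promoter and distance classes, 6 had the value of all loops inside the interval of the low-to-high loops. The exception was the class from 20 to under 100 kb, where the change was 0.101 (0.051 to 0.15) against 0.027. In the 140 loops with 20 or more H3K27ac read pairs at 16 h the change was 0.19 (0.058 to 0.33), and its difference from all loops lay between -0.080 and 0.19.

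At other times H3K4me3 contact did differ from that of all loops. From 0 m to 4 h it was higher by 0.46 (0.44 to 0.49) in the low-to-high loops and by 0.24 in all loops, a difference of 0.22 (0.19 to 0.25). The loops just outside the limits were close, at 0.42 with 3 read pairs at 0 m and 0.41 with 9 at 16 h. Those that the rule takes at 30 m, 4 h and 72 h were higher by 0.29, 0.13 and 0.44. From 0 m to 72 h the low-to-high loops were lower, by -0.095 (-0.13 to -0.058), against -0.17 in all loops. In the remaining loops with fewer than 3 H3K27ac read pairs at 0 m this change was 0.0082 (-0.0016 to 0.018), further from all loops. The direction of the 0 m to 72 h change in low-to-high loops depended on the scale and on the loops taken. With the libraries scaled to equal totals, where all loops are at 0, it was 0.071 (0.033 to 0.108). This equals its difference from all loops at the deposited scale. In low-to-high loops absent from the H3K4me3 set it was 0.034 (-0.025 to 0.094) at the deposited scale. The 4 h library was the deepest of this mark, with 6726710 read pairs, and 1 library stands for each time.

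**Figure D3:**
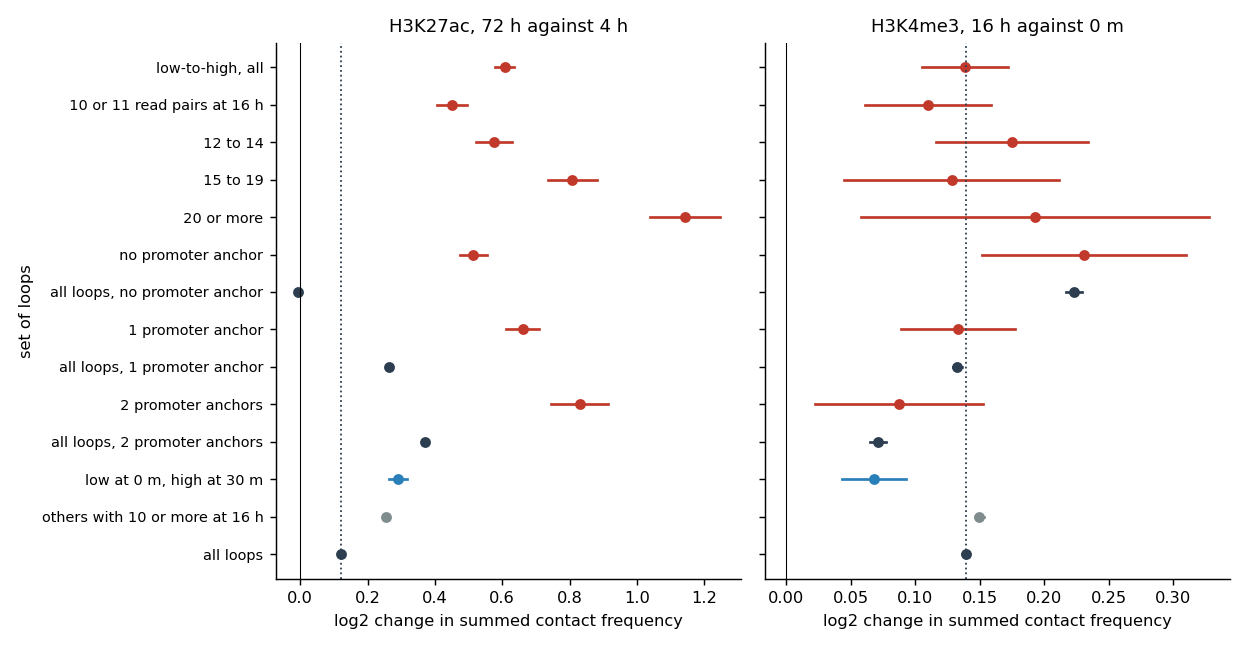
Log2 change in summed contact frequency (horizontal axes) for H3K27ac from 4 h to 72 h (left) and H3K4me3 from 0 m to 16 h (right), for sets of loops on the vertical axis, none of whose H3K27ac values at 0 m or 16 h enter the change shown. Points are the changes, bars are 95% intervals for counting error, and the dotted lines mark all loops (0.12 and 0.14). On the left the low-to-high loops are at 0.61 and those with 20 or more read pairs at 16 h at 1.14, and on the right the low-to-high loops are at 0.14.

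The low-to-high loops spanned a median of 100 kb (interval 95 to 110, quartiles 45 and 200 kb), against 125 kb over all H3K27ac loops and 20 kb over the other loops with at least 10 read pairs at 16 h. Loops under 20 kb were 7.91% of them (6.95 to 8.96), 14.2% of all loops and 46.5% of the others with at least 10. The rule itself bears on this, since loops under 20 kb had a median of 13 H3K27ac read pairs at 0 m and loops of 100 to under 500 kb had 3. The 140 loops with 20 or more read pairs at 16 h were shorter, with a median of 55 kb (40 to 85). The loops taken by the same rule at 30 m, 4 h and 72 h had medians of 90, 55 and 85 kb.

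A protein-coding promoter, taken as the 2.5 kb on either side of a start, was present at an anchor of 1444 low-to-high loops, or 50.5% (48.7 to 52.4). The share was 41.9% over all loops, 43.9% (43.5 to 44.3) over the others with at least 10 read pairs at 16 h and 44.1% over the remaining loops with fewer than 3 read pairs at 0 m. Both anchors were promoters in 362 loops, or 12.7% (11.5 to 13.9), against 7.01% of all loops, and 1413 loops had no promoter. The share with 2 promoters was 9.73% over the others with at least 10 read pairs at 16 h. It was 15.2%, 5.72% and 12.8% for the loops that the rule takes at 30 m, 4 h and 72 h. The share with a promoter was 62.0% for the loops that the rule takes at 30 m, 32.9% at 4 h and 51.6% at 72 h, so that it differed more among the times than between 16 h and all loops. The H3K4me3 set held 36.5% of the low-to-high loops (34.8 to 38.3) and 23.2% of all H3K27ac loops. It held 33.8% of the other loops with at least 10 read pairs at 16 h, and 36.4%, 20.7% and 35.6% of those that the rule takes at 30 m, 4 h and 72 h.

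**Figure D4:**
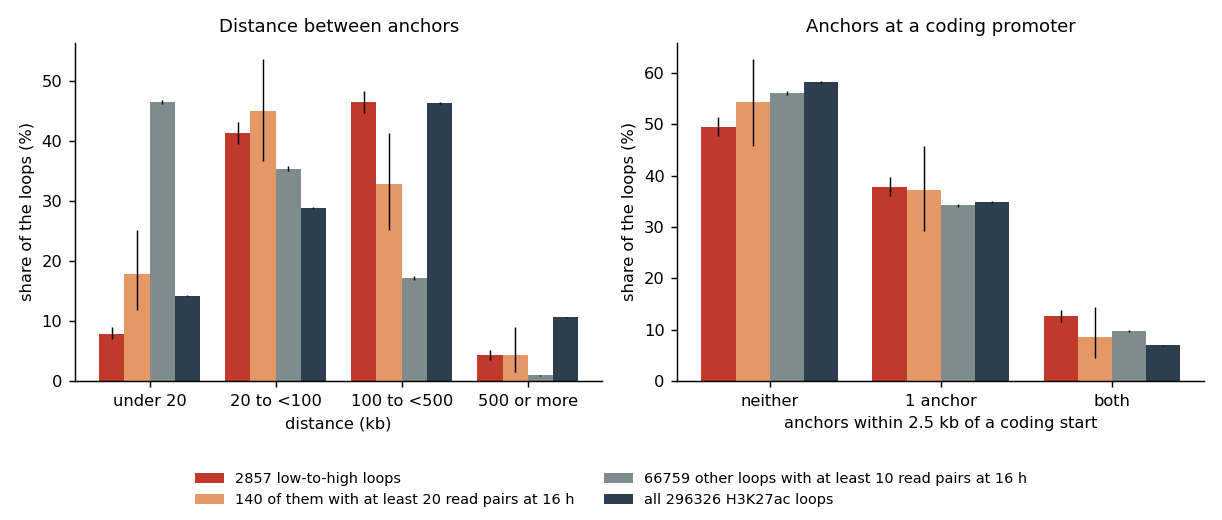
Share of loops (vertical axes, percent, from 0) by distance between anchors (left, 4 classes in kb) and by how many anchors lie at a coding promoter (right), for the low-to-high loops, their 140 members with at least 20 read pairs at 16 h, the other loops with at least 10 read pairs at 16 h and all loops. Bars are shares and lines are exact 95% binomial intervals. Of the low-to-high loops 7.91% were under 20 kb and 12.7% joined 2 promoters.

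The loops were scattered over the genome. With anchors within 10 kb joined, they formed 2012 loci, of which 1514 (75.2%) held 1 loop, 315 held 2 and 30 held 5 or more. Of the 4961 anchors, 4366 were used by 1 low-to-high loop and the most used by 7. The share of loops that met the rule was highest on chromosome 19 at 1.38% (1.18 to 1.61), and lowest on chromosome 21 at 0.586% (0.398 to 0.830), against 0.964% over all.

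The locus with the most, chr9:110147001-111523000, had 20 low-to-high loops of the 342 loops inside it and no coding promoter at their anchors. Its middle lay nearest to the start of KLF4, a zinc finger transcription factor of epithelial differentiation. The 20 loops held 27, 90, 46, 265 and 184 H3K27ac read pairs, and 5, 3, 21, 14 and 11 of H3K4me3. The high counts were thus at 16 h and 72 h, and the 4 h library lay below the 30 m library. Without this locus the 4 h to 72 h change of the whole set was 0.60.

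The second, chr7:98622001-98993000, had 12 loops at the promoters of SMURF1, a ubiquitin ligase of the TGF-beta and BMP pathways, KPNA7, an importin, and ARPC1A, a subunit of the actin-nucleating Arp2/3 complex. These loops held 22, 150, 70, 198 and 160 H3K27ac read pairs. The third, chr4:38182001-38733000, had 11 loops around the promoter of KLF3, a Krüppel-like repressor, with 15, 72, 35, 140 and 106 read pairs. Both loci had more than 70 read pairs at 30 m already.

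A pair of loci lay in zinc finger gene clusters of chromosome 19, whose genes encode mostly KRAB repressors. At chr19:12147001-12723000, 10 loops with promoters of ZNF136, ZNF433, ZNF44, ZNF443, ZNF490, ZNF563, ZNF791 and ZNF799 held 14, 108, 36, 129 and 122 read pairs. At chr19:52597001-53238000, 8 loops with promoters such as ZNF578, ZNF610 and ZNF611 held 9, 53, 34, 110 and 46. Many genes of these clusters are similar in sequence. The authors' pipeline kept uniquely mapped read pairs, and how well reads map at these loci was not tested.

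At chr3:70787001-71703000, 8 loops held 11, 34, 38, 109 and 72 H3K27ac read pairs around FOXP1, a forkhead transcription factor. The FOXP1 promoter had 7 of them, as many as KPNA7 and the most of any of the 1729 genes with a low-to-high loop, of which 1448 had 1. At chr10:91022001-91173000, 7 loops joined the interferon-induced IFIT1, IFIT2, IFIT3 and IFIT5 genes, whose proteins bind viral RNA, and held 7, 42, 27, 149 and 121 read pairs. In H3K4me3 these 7 loops held 14, 13, 86, 28 and 13 read pairs, so their highest count was in the deepest library. At chr18:56067001-57028000, 8 loops held 13, 44, 56, 106 and 54 read pairs, with LMAN1, a cargo receptor of the secretory pathway, as the only coding promoter.

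Of the remaining 4 loci with the most loops, the 7 loops around ZNRF2, a ubiquitin ligase (chr7:30182001-30498000), held 9, 65, 38, 102 and 52 read pairs. The 7 loops around DHX15, a splicing helicase (chr4:24522001-24878000), held 11, 62, 35, 100 and 28, the lowest count at 72 h relative to 16 h among these loci. The 7 loops with promoters of CARMIL2, RANBP10 and RIPOR1 (chr16:67562001-67963000) held 11, 69, 50, 74 and 35. The 6 loops at RDH10, a retinol dehydrogenase, and RPL7, a ribosomal protein, held 10, 51, 23, 109 and 103. The 72 h library was shallower than the 16 h library. As mean contact, 72 h lay above 16 h at RDH10 (4.52 and 3.86) and at the ZNF136 locus (3.21 and 2.74). It lay slightly above at the IFIT locus (4.55 and 4.52) and at SMURF1 (3.51 and 3.50), and below at the other loci listed.

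The loop with the most read pairs at 16 h joined the promoters of SMPD1, the lysosomal acid sphingomyelinase, and TRIM3, a tripartite motif ubiquitin ligase, over 85 kb on chromosome 11 (chr11:6412001-6413000 and chr11:6497001-6498000). It had 2, 33, 17, 59 and 44 H3K27ac read pairs. In H3K4me3 it had 22, 13, 124, 37 and 12, so this contact was present in the vehicle H3K4me3 library. A 5 kb loop near CCDC34 had 2, 13, 20, 50 and 33 H3K27ac read pairs and 2, 1, 9, 3 and 5 of H3K4me3.

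A 60 kb loop from an exon of IFIT3 to the IFIT1 promoter (chr10:91092001-91093000 and chr10:91152001-91153000) had 2, 7, 5, 50 and 28 H3K27ac read pairs and 3, 2, 20, 1 and 1 of H3K4me3. A 130 kb loop between introns of PNKD and VIL1, the latter encoding the actin-bundling protein villin, had 2, 10, 4, 42 and 15. A 5 kb loop within ZSWIM6 had 2, 10, 6, 40 and 11. In these 3 loops the 16 h count was at least 3 times that at 4 h and 30 m, and the 72 h count lay between.

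A 100 kb loop from an intron of SH3PXD2A, a podosome scaffold, to STN1, a subunit of a telomere-binding complex, had 2, 10, 2, 36 and 23 read pairs. A 755 kb loop between intergenic anchors nearest to the keratin genes KRT20 and KRT17 had 2, 18, 2, 32 and 27. Both were as low at 4 h as at 0 m. Within CUX1, a homeobox gene, a 30 kb loop had 2, 25, 16, 35 and 36, and within COMMD1, a copper homeostasis gene, a 5 kb loop had 2, 18, 26, 36 and 21.

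The loop from the shared promoter of ABHD17B and C9orf85 into C9orf85 (50 kb) had no H3K27ac read pair at 0 m and 22, 8, 35 and 23 at the later times. Its H3K4me3 counts were 12, 13, 66, 19 and 11. The loop from C2 to the promoter of CFB, neighbouring genes of the complement cascade (25 kb), had 1, 26, 7, 33 and 22. A 425 kb loop to the promoter of BTG1, an antiproliferative gene, had 1, 8, 12, 32 and 5, and was the one of these 15 loops with fewer read pairs at 72 h than at both 30 m and 4 h.

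The promoters of ULBP2 and RAET1L, which encode ligands of the natural killer receptor NKG2D, were joined over 85 kb with 2, 12, 13, 31 and 34 read pairs. The last pair of the 15 were a 125 kb loop from COLEC10 to the promoter of MAL2, a protein of apical transport, with 1, 9, 9, 34 and 23, and a 5 kb loop within ADRA1A, the alpha-1A adrenergic receptor gene, with 1, 18, 21, 33 and 23. All 15 loops had more H3K27ac read pairs at 72 h than at 0 m, although the 0 m value was fixed by the rule.

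**Figure D5:**
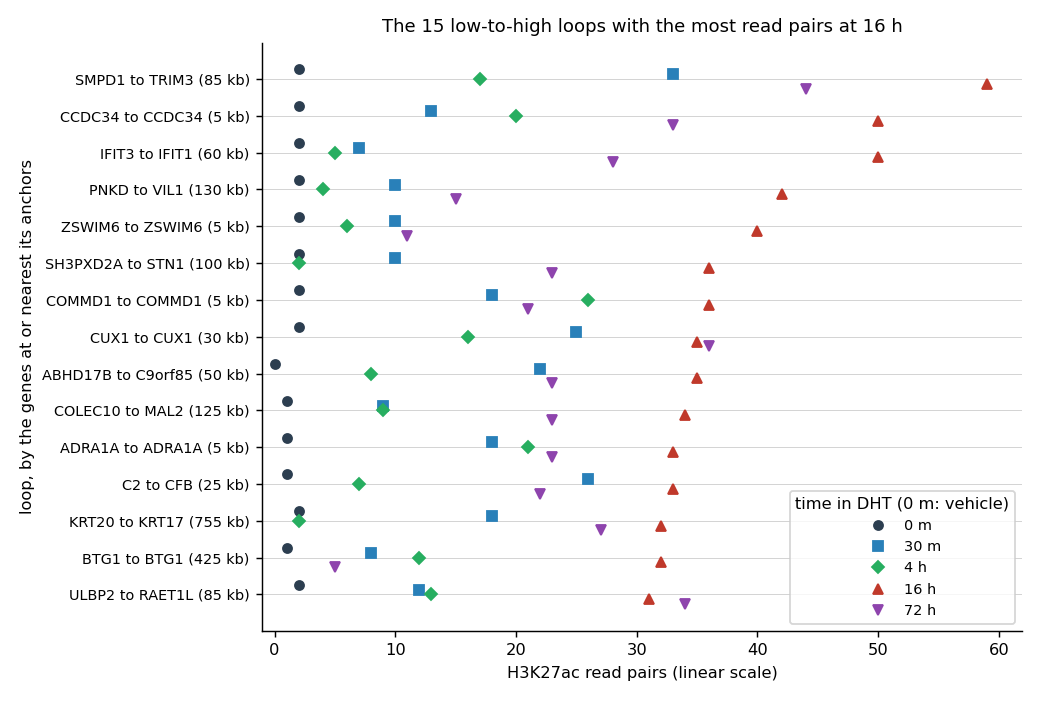
H3K27ac read pairs (horizontal axis, linear) in vehicle (0 m) and at the 4 times in DHT, 1 symbol per time, for the 15 low-to-high loops with the most read pairs at 16 h (vertical axis, named by the genes at or nearest to their anchors, with the distance in kb). The 0 m circles lie at 0 to 2 by the rule, the 16 h triangles between 31 and 59, and the 72 h symbols between 5 and 44.

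The low-to-high loops with the most H3K4me3 read pairs were contacts of promoters, and their H3K4me3 counts were highest in the 4 h library, the deepest of that mark. A 5 kb loop at PRPS2, a phosphoribosyl pyrophosphate synthetase, had 45, 37, 191, 65 and 25 H3K4me3 read pairs and 2, 10, 6, 10 and 7 of H3K27ac. The loop between the promoter shared by CCDC157 and SF3A1, a splicing factor, and that of RNF215 (30 kb) had 36, 33, 183, 48 and 30, and 2, 32, 11, 13 and 20 of H3K27ac. Both contacts were thus well covered at 0 m in one mark and nearly empty in the other.

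Another 7 were at PDCD5, CENPE, ZNF222, the promoter of HAUS2 and LRRC57, the promoter of ANKS1A and TAF11, ZHX1 with ATAD2, and RFC2. They had between 27 and 34 H3K4me3 read pairs at 0 m and between 35 and 54 at 16 h. CENPE is a kinesin of the centromere, ATAD2 a bromodomain protein and RFC2 a subunit of the clamp loader of DNA replication. Their H3K27ac counts at 16 h were 10 to 23.

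Of the 89 genes of the androgen response list that the study used, 82 had any H3K27ac loop and 22 had a low-to-high loop. Over all 19881 coding genes with an annotated promoter, with or without any loop, 1729 had a low-to-high loop. The number of all genes with any loop was not counted. Of the 1340 loops at promoters of that list, 24 met the rule, or 1.79% (1.15 to 2.65), beside 0.964% of all loops and 1.16% of the 124061 loops with any coding promoter. Of its 338 loops with at least 10 read pairs at 16 h they were 7.10% (4.60 to 10.4), beside 4.1% of all loops of that count and 4.69% of the 30760 with a coding promoter. Both promoter-loop shares lie inside the list's intervals. The rule used the contrast in which this list is known to move, so these counts are given as a description. None of the 76 loops of 7 androgen-repressed genes met the rule (0%, up to 4.74%), nor did any of the 8 loops at blood marker genes (up to 36.9%). It was met by 3 of 331 loops at luminal transcription factor genes, by 1 of 215 at prostate marker genes and by 1 of 8 at basal marker genes.

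For the study's lists of genes by the time of their highest nascent transcription, the share to set these counts beside is again the 1.16% of promoter loops. The rule was met by 10 of 587 loops (1.704%) for genes highest at 30 m, 17 of 911 (1.87%) for 4 h, 29 of 1858 (1.56%, 1.05 to 2.23) for 16 h and 17 of 1303 (1.305%) for 72 h. The genes highest at 16 h that had such a loop included IFIT1, IFIT2, IFIT3, RAET1L and LIF, the last a cytokine of the interleukin-6 family. The intervals of the 4 shares overlap, and each holds 1.16%.

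Of the androgen response genes, APPBP2, which encodes a protein that binds the amyloid precursor, had 2 low-to-high loops, to the promoters of USP32 and BCAS3. Together they held 3, 19, 10, 32 and 9 H3K27ac read pairs. The loop from the promoter of ELOVL5, a fatty acid elongase, to an intergenic anchor (85 kb) had 2, 18, 11, 29 and 11, and 18, 21, 109, 59 and 20 H3K4me3 read pairs. ZMIZ1, a coactivator of the androgen receptor, had 2 loops of 130 and 765 kb, with 4, 33, 9, 27 and 17 H3K27ac read pairs in sum. In these 3 genes the 30 m count was 18 or more.

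Genes of lipid synthesis among them included IDI1, an isomerase of isoprenoid synthesis, and FADS1, a fatty acid desaturase. The loop of IDI1 had 2, 16, 5, 12 and 11 H3K27ac read pairs, and that of FADS1 (310 kb) had 2, 14, 6, 13 and 5. Both had more read pairs at 30 m than at 16 h, while the loop of ELOVL5 above had fewer (18 and 29). As contact, the loop of IDI1 was 2.88 at 30 m and 2.55 at 16 h. That of FADS1 was 2.52 and 2.76, so its order turned. Of the secretory pathway, LMAN1 (575 kb) had 1, 7, 4, 13 and 4, and DNAJB9, a chaperone of the endoplasmic reticulum (45 kb), had 2, 24, 8, 13 and 9.

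The 60 kb loop within FKBP5, a co-chaperone of steroid receptors, had 2, 14, 7, 14 and 9 read pairs. The loop of ELL2, a transcription elongation factor (195 kb), had 2, 13, 8, 16 and 9, and that of PMEPA1, an inhibitor of TGF-beta signalling (235 kb), had 2, 5, 3, 11 and 5. KRT8, the luminal keratin that is also on the prostate marker list, was joined to the promoter of TNS2 over 145 kb with 0, 16, 7, 13 and 7. The loop of SRF, the serum response factor (165 kb), had 1, 6, 4, 12 and 14, more at 72 h than at 16 h. Of the luminal factors, CREB3L4, a prostate-enriched transcription factor of the endoplasmic reticulum, shared its promoter with SLC39A1 and had 2 loops with 4, 24, 15, 28 and 17.

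The remaining genes named by the rule, HERC3, PA2G4, RAB4A, ADRM1 and ANKH, each had 1 loop with 10 to 14 read pairs at 16 h. In 4 of the 5 the loop had more read pairs at 30 m than at 16 h: 19 and 14 for HERC3, 16 and 14 for PA2G4, 20 and 14 for RAB4A, and 17 and 11 for ADRM1. The loop of ANKH had 4 and 10. GSR had 0, 4, 4, 11 and 7. As contact, the loop of PA2G4 was lower at 30 m (2.88) than at 16 h (2.97), while those of HERC3, RAB4A and ADRM1 stayed higher at 30 m. Most of these loops thus rest on 10 to 16 read pairs at 16 h and on libraries between which such counts differ by depth as well.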

How the data were processed

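HiChIP of H3K27ac and H3K4me3 in LNCaP was processed by the authors with Trim Galore 0.5.0, Bowtie2 and HiC-Pro 3.1.0 on hg19. Loops were called in 5 kb bins on the merged time points of a mark, and the deposited contact signal was scaled by TMM among the times of a mark. Whether both H3K27ac replicates entered a value is not stated. The low-to-high loops and all gene lists were chosen with earlier results of these data known.

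Read pairs were recovered as whole multiples (relative tolerance 1e-06) of the smallest value above 0. Depth was 1327128 to 6726710 read pairs per table over the H3K27ac set. Changes of summed contact carry exact 95% intervals of the read-pair ratio, shares exact Clopper-Pearson intervals, and both cover counting error only. Expected numbers under a split or thinning are exact binomial sums. Promoters are the 2.5 kb around the start of the canonical transcript of 19881 coding genes (Gencode, GRCh37). No loop (0) ran past a chromosome end. Named were the 15 loops with the most 16 h read pairs, the 12 loci with the most loops, 20 genes of 4 lists and the 10 loops with the most H3K4me3 read pairs. A few items that this rule names are not reported here. Alternatives varied the limits, scale, length, promoter window and locus distance. The canonical start and the split within length classes were chosen after the data were seen. Scripts were tested on simulated data and used Python 3.11.15, numpy 2.4.6, pandas 2.3.3, scipy 1.17.1, pysam 0.24.0 and matplotlib 3.10.9.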

Additional observations from a re-analysis of the deposited data

How the results depend on the processing

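No paired analysis was possible because each table holds 1 value per loop, mark and time point and carries no replicate number. Nor was any replicate left out, as none is separate in the tables. Depth limits single loops, which rest mostly on 10 to 14 read pairs at 16 h. Of 63 alternatives for 12 results, 25 left the value within its counting interval or, for counts, within 1.5 times. At equal totals the H3K4me3 change from 0 m to 16 h was -0.00042 in place of 0.14, that from 0 m to 72 h was 0.071 in place of -0.095, and that from 0 m to 4 h was 0.22. At this scale all loops are at 0 by construction. H3K27ac was 0.23 from 30 m to 72 h and 0.49 from 4 h to 72 h. With at least 20 read pairs at 16 h, the H3K4me3 changes at 16 h, 4 h and 72 h were 0.19, 0.59 and -0.19, and the H3K27ac changes from 30 m to 72 h, 30 m to 4 h and 4 h to 72 h were 0.76, -0.38 and 1.14. The median length was then 55 kb, the promoter share 45.7% and the share at androgen response genes 1.43%. With 0 read pairs at 0 m these values were 0.56 for H3K4me3 at 4 h, 0.32, -0.34 and 0.66 for H3K27ac, 127.5 kb and 47.97% for promoters. In loops absent from the H3K4me3 set, the H3K4me3 changes at 16 h, 4 h and 72 h were 0.17, 0.34 and 0.034, the last turned in sign with an interval that holds 0, and the H3K27ac changes were 0.41, -0.16 and 0.57. In loops of at least 20 kb H3K27ac was -0.31 from 30 m to 4 h and 0.65 from 4 h to 72 h, and the promoter share 53.7%. That share was 53.9% with 5 kb bins (45.6% over all loops), 35.1% with a promoter window of 1 kb on either side (27.3%) and 47.99% with the outermost gene start (39.2%). The element with 1 mismatch was in 0.443% of the 1 kb anchors, and in 0.202% of bins without a mismatch. The number of loops was 296 with 0 read pairs at 0 m, 536 with at least 15 and 6246 with at least 8 at 16 h, and 482 after thinning. The causes were not tested.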
